A study of Mus musculus with 6 samples.

Results

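Structural genes of peripheral myelin were followed in the sciatic nerve of mice that lack Srebf-1c. The set was defined by name as Mbp, Pmp22, Mag, Prx, Pmp2, Cnp, Mal and Gjb1, and a gene was measured where the array had a probe set annotated with its symbol alone. That held for 7 of the 8 genes, each with 1 probe set, out of 22180 genes measured in all. Prx was not analysed here. None of the 7 differed between the genotypes beyond the spread of the arrays. All 7 are expressed by myelinating Schwann cells.

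Srebf-1c is a product of Srebf1, a transcription factor known for driving genes of fatty acid synthesis. There were 3 arrays of wild-type littermates and 3 of mice labelled Srebf-1c KO, all 10 months old, with total RNA of whole sciatic nerve labelled with an Affymetrix kit. The labels used here do not state strain, sex or the design of the allele. Samples carry the numbers 1 to 3 in each genotype, and whether a number is a mouse of its own is not stated. The p-values therefore rest on a spread that may be technical in part. The groups follow the titles and the genotype field, although the source field says wild type for all 6 samples. Srebf1 was lower on every array titled KO (intensity 276, 267 and 262) than on every wild-type array (737, 750 and 834), at 0.348 of the wild-type level (limma adjusted p = 0.0497). That adjusted p was above 0.05 under other settings, among them repeated quantile normalization, the replicate block and leaving out wild-type replicate 1.

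Myelin is the multilayered membrane that a Schwann cell wraps around an axon. In compact myelin the layers are pressed together by proteins such as those of Mbp, Pmp22 and Pmp2. Non-compacted regions, where cytoplasm is kept, hold the products of Mag, Cnp and Gjb1, and Mal carries lipids and proteins to the membrane. Most of the dry mass of myelin is lipid, much of it made by the Schwann cell itself, and mutations of PMP22 and GJB1 are classic causes of inherited demyelinating neuropathy.

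Of the 8 genes, 6 had RefSeq promoter windows (GRCm38.p6) in the search, 14 windows in all. Windows on the chromosome of Mbp were left out, so Mbp was not searched, and no window was found for Pmp2. The 250 bases before each annotated start were searched on both strands for the sterol regulatory element TCACNCCAC, the SREBP E-box TCACGTGA, the CCAAT box CCAAT, the GC box GGGCGG, the SOX-type motif ACAAAG and the EGR-type motif GCGGGGGCG. CCAAT and GC boxes bind NF-Y and Sp1, known partners of SREBP, and SOX10 and EGR2 are the transcription factors known for driving myelin genes. Mag and Cnp were taken because they ranked the 6 arrays alike, Gjb1 because it varied most between arrays and Pmp22 as the brightest. A single window of each is printed below. They are written 5′ to 3′ on the strand of the gene and end at the base before the start, with motif matches in capitals. The Mag window lies on the minus strand at chr7:30914923-30915172, and the others lie on the plus strand at chr11:100574689-100574938 for Cnp, chrX:101383482-101383731 for Gjb1 and chr11:63131207-63131456 for Pmp22.
Mag: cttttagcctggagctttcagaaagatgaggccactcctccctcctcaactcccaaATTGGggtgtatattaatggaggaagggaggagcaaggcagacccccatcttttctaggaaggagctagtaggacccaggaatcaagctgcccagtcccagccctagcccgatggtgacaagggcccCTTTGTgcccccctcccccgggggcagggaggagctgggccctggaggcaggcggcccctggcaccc
Cnp: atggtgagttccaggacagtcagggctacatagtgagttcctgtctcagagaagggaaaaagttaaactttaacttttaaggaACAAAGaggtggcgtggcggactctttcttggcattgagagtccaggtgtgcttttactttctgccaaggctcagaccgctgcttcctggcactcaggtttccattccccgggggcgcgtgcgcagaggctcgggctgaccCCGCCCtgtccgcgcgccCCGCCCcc
Gjb1: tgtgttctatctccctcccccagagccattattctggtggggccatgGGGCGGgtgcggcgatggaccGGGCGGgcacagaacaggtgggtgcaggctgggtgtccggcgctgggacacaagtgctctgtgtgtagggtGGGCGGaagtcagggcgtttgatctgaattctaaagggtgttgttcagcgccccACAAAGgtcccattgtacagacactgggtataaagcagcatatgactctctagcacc
Pmp22: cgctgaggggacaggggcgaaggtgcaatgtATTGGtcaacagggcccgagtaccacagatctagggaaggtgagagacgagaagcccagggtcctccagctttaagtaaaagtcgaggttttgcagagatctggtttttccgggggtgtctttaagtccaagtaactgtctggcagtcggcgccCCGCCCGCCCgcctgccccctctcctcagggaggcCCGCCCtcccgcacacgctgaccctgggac

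The sterol regulatory element and the SREBP E-box had 0 matches in the 14 windows. Over all 32851 windows of this length they were found in 1.05% and 0.785%. The EGR-type motif was also without a match (2.57% of all windows). ACAAAG was in 5 of the 14 windows, among them those printed for Mag, Cnp and Gjb1, and in 16.5% of all windows. The GC box was in 4 of the 14 (28.6%), among them those printed for Cnp, Gjb1 and Pmp22, against 32.7% of all windows. In the Pmp22 window a pair of its GC boxes overlap each other. The CCAAT box was in 7 of the 14, among them those printed for Mag and Pmp22 and others of Mag, Gjb1, Pmp22 and Prx, against 33.8% of all windows. Mag had 3 windows in all, and Gjb1 and Pmp22 had 4 each, so the printed windows do not stand for all of a gene. Those printed for Gjb1 and Pmp22 held the most matches among the windows of the gene. Among the windows not printed, a window of Gjb1, a window of Pmp22 and the only window of Mal held no match of any of these motifs. Windows of 1 gene can overlap, so the 14 are not independent. These are matches of letters in short windows, and no binding was measured.

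For the genes of compact myelin and for Mal, the KO arrays overlapped the wild-type arrays. Mbp, which encodes the basic protein that joins the cytoplasmic faces of the membrane and also, from an upstream start, the golli proteins, had an intensity of 6877, 7188 and 6416 among wild-type arrays, with 6585, 6578 and 6918 among those of KO. The highest and the lowest value were both wild type, and the 3 KO values lay between them. The log2 fold change, KO minus wild type, was -0.027 ± 0.11 (SE), with a limma adjusted p = 0.987 over all genes. The largest value was 1.12 times the smallest, the narrowest range of the 7 genes.

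Pmp22, the tetraspan membrane protein whose gene dosage is known to matter for myelin stability, had an intensity of 11085, 12925 and 12432 among wild-type arrays, with 12840, 12194 and 13052 among those of KO. Wild-type replicate 1 was lowest and KO replicate 3 highest, and the groups overlapped. The log2 fold change was 0.066 ± 0.12 (SE; adjusted p = 0.962), and it turned to -0.065 when quantile normalization was repeated. Leaving out 1 array at a time gave 0.0016 (without wild-type replicate 1) to 0.11 (without wild-type replicate 2).

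Pmp2, a fatty acid-binding protein of the cytoplasmic face of myelin, had an intensity of 3395, 3345 and 3562 among wild-type arrays, with 3400, 3427 and 5039 among those of KO. KO replicate 3 stood alone, and the other arrays lay between 3345 and 3562. The SD of the log2 intensity was 0.32 in KO against 0.047 in wild type (n = 3 each). The log2 fold change of 0.18 ± 0.18 (SE; adjusted p = 0.917) was the largest of the 7, and without KO replicate 3 it was -0.0082.

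Mal, a proteolipid of lipid rafts, had an intensity of 6231, 8132 and 7402 among wild-type arrays, with 7701, 7515 and 8305 among those of KO. As for Pmp22, wild-type replicate 1 was lowest and KO replicate 3 highest. The log2 fold change was 0.12 ± 0.14 (SE; adjusted p = 0.934). It was 0.014 without wild-type replicate 1 and 0.21 without wild-type replicate 2, the extremes over the arrays left out.

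**Figure D1:**
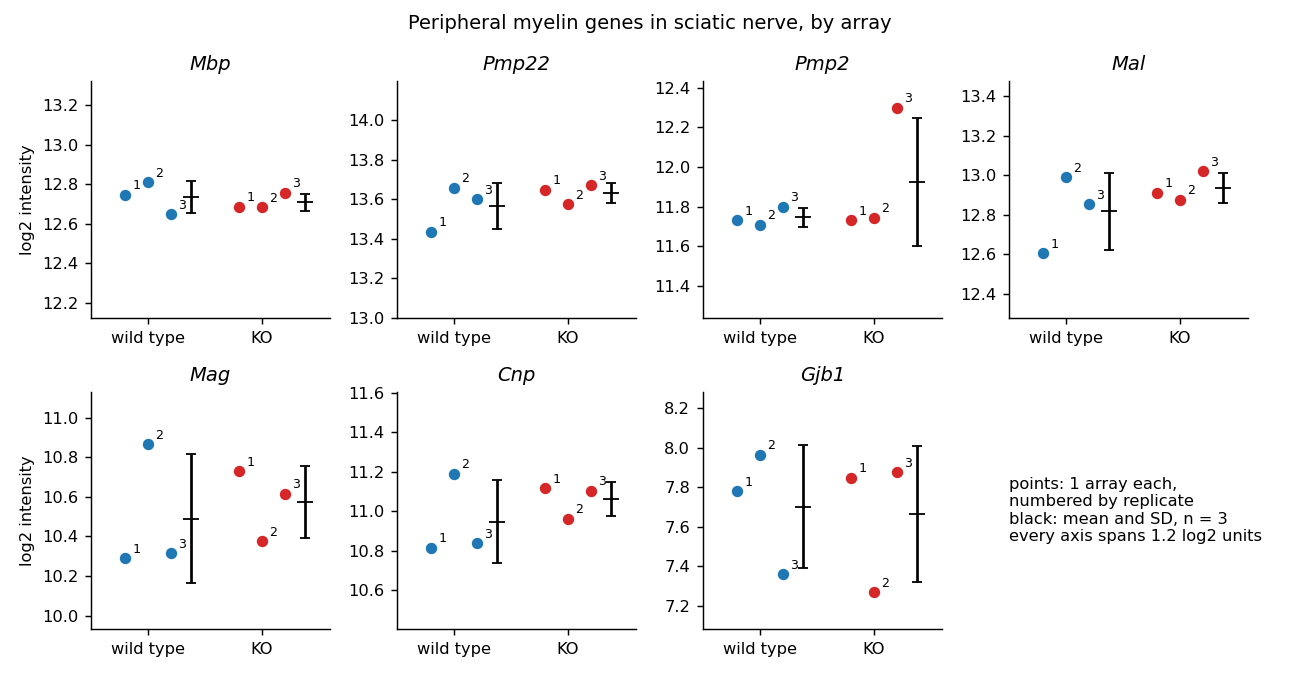
Log2 intensity (vertical axis) of the 7 measured myelin genes on each wild-type (blue) and KO (red) array, numbered by replicate, with the mean and SD of 3 arrays in black. The groups overlap for all 7 genes, and KO replicate 3 stands above the other arrays for Pmp2.

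The genes of non-compacted myelin ranged from 1.30-fold (Cnp) to 1.62-fold (Gjb1) over the 6 arrays, with KO and wild type overlapping for each. Mag, an adhesion protein of the Schwann cell membrane that faces the axon, had an intensity of 1252, 1868 and 1273 among wild-type arrays, with 1700, 1328 and 1569 among those of KO. Wild-type replicate 2 was highest and the other wild-type arrays were lowest, so the KO values lay within the wild-type range. The log2 intensity was 10.49 ± 0.33 (SD, n = 3) among wild-type arrays, with 10.57 ± 0.18 in KO, a log2 fold change of 0.083 ± 0.19 (SE; adjusted p = 0.972). It was -0.017 without wild-type replicate 1, -0.0046 without wild-type replicate 3 and 0.27 without wild-type replicate 2.

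Cnp, an enzyme that keeps cytoplasmic channels in myelin open, had an intensity of 1802, 2335 and 1830 among wild-type arrays, with 2221, 1996 and 2202 among those of KO. Its arrays ranked in the same order as those of Mag, from wild-type replicate 2 through KO replicates 1, 3 and 2 to wild-type replicates 3 and 1. The log2 fold change was 0.11 ± 0.14 (SE; adjusted p = 0.939). It was 0.048 without wild-type replicate 1, 0.059 without wild-type replicate 3 and 0.24 without wild-type replicate 2.

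Gjb1, which encodes the gap junction protein connexin 32, had an intensity of 220, 250 and 164 among wild-type arrays, with 231, 154 and 235 among those of KO. Wild-type replicate 3 and KO replicate 2 were the low arrays, 1 in each genotype. The log2 fold change was -0.036 ± 0.22 (SE; adjusted p = 0.991). It was 0.025 with repeated quantile normalization, 0.11 with array weights, 0.16 without KO replicate 2 and -0.21 without wild-type replicate 3, so no direction could be given.

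As a set, 0 of the 7 genes passed a limma adjusted p of 0.05, where 0.00451% of all genes did (Srebf1 alone). The smallest adjusted p was 0.917, and 0 of the 7 had an unadjusted p under 0.05, against 5.83% of all genes. With the unmoderated test of the study 0 of the 7 did, against 6.37% of all genes. The selection rule in the design text asks for a 1.5-fold difference together with an unadjusted p below 0.05. With the p of limma, 0 of the 7 satisfied it, against 1.19% of all genes. In 0 of the 7 did the KO arrays lie all above the wild-type arrays, which 4.08% of all genes showed, or all below them, which 8.21% showed. The mean was higher in KO for 5 genes and lower for 2. The median log2 fold change was 0.083, against -0.032 over all genes, and it was 0.003 without wild-type replicate 1.

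The 95% interval of the fold change describes the precision of the fit on the intensity scale of the arrays. It does not cover any compression of high intensities, and it rests on a spread that may be technical in part. KO over wild type ran from 0.819 to 1.18 for Mbp, from 0.865 to 1.27 for Pmp22 and from 0.869 to 1.36 for Mal. It ran from 0.858 to 1.36 for Cnp, from 0.776 to 1.45 for Mag and from 0.676 to 1.41 for Gjb1. For these 6 the interval, unadjusted for the number of genes, lay inside a change of 1.5-fold in either direction (0.667 to 1.5), as it did for 61.2% of all genes. For Pmp2 it ran from 0.851 to 1.51. Changes within these intervals were not resolved with 3 arrays a group.

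**Figure D2:**
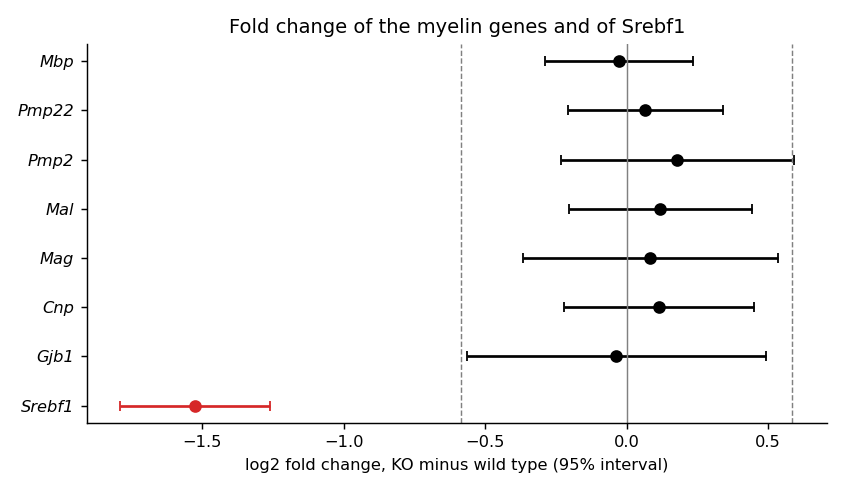
Log2 fold change, KO minus wild type, with its 95% interval from limma (horizontal axis) for the 7 myelin genes (black) and Srebf1 (red), and dashed lines at a 1.5-fold change. Every myelin gene interval crosses 0, and that of Pmp2 reaches 1.51-fold.

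High intensities can compress differences on arrays, so the position of each probe set in the measured range was examined. Pmp22 ranked 16th, Mal 43rd and Mbp 56th of 22180 genes by mean intensity, Pmp2 271st, Cnp 816th, Mag 1404th and Gjb1 10200th. These ranks place the probe sets on the scale of the array and do not compare transcript levels between genes. The brightest value in the whole table was 23738, and the highest of Pmp22 was 13052. Of the 34 genes with a mean log2 intensity of 13 or more, where Pmp22 lies, 0 met the study's criterion in limma, and their largest log2 fold change in either direction was 0.41. Of the 175 genes from 12 to 13, which hold Mal and Mbp, 1 met it and the largest was 0.87. Of the 2221 genes from 10 to 12, which hold Pmp2, Cnp and Mag, 18 met it and the largest was 1.83. The largest value of a range also depends on how many genes it holds. The median absolute log2 fold change was 0.16 for the 34 genes of 13 or more, 0.12 from 12 to 13 and 0.10 from 10 to 12. Among dimmer genes it was 0.13 from 8 to 10, 0.13 from 6 to 8 and 0.15 below 6. Whether high intensities were compressed was not tested.

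The spread within genotypes differed among the 7 genes. The within-group SD of log2 intensity was 0.065 for Mbp, lower than in all but 5.7% of the genes from 12 to 13, whose median was 0.16. For Mal, in the same range, it was 0.15, and for Pmp22 it was 0.089 beside a median of 0.13 for genes of 13 or more. Mag (0.26) and Pmp2 (0.23) stood above the median of 0.16 for genes from 10 to 12, and Cnp (0.16) lay at it. Gjb1 had 0.33, against 0.21 for genes from 6 to 8. Mal and Mbp were thus alike in brightness, but Mal ranged 1.33-fold over the arrays and Mbp 1.12-fold. Whether Mbp and Pmp22 were held near the top of the scale was not tested.

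**Figure D3:**
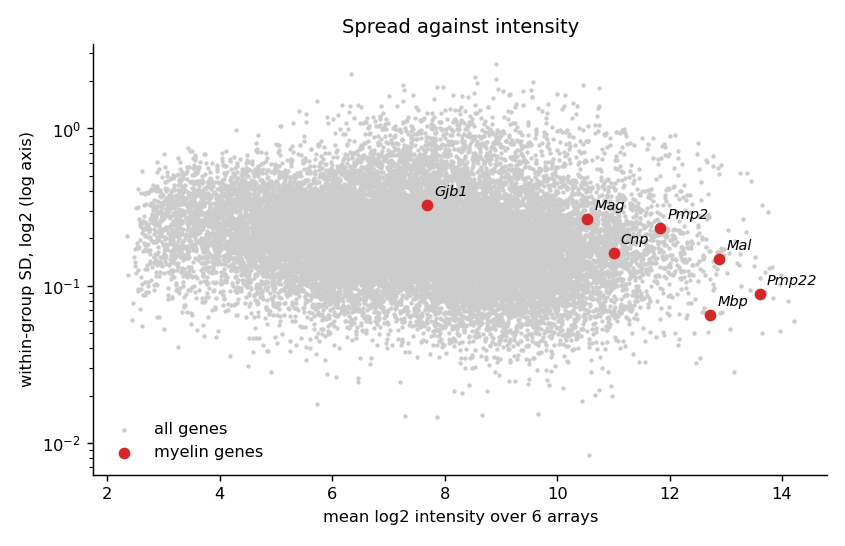
Within-group SD of log2 intensity (vertical, log axis) against mean log2 intensity over 6 arrays (horizontal) for all 22180 genes (grey) and the 7 myelin genes (red). Mbp at 0.065 and Pmp22 at 0.089 are lowest of the 7, and Gjb1 at 0.33 is highest.

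The order of the arrays differed among the 7 genes and did not follow genotype. Wild-type replicate 2 was the highest array for Mbp, Mag, Cnp and Gjb1 and KO replicate 3 for Pmp22, Pmp2 and Mal. Wild-type replicate 1 was the lowest array for Pmp22, Mag, Cnp and Mal, while over all genes it was lowest for 18.6%. Mbp and Gjb1 lay above their own means on that array, and Pmp2 was lowest on wild-type replicate 2. The mean deviation of the 7 genes from their 6-array means was -0.12, 0.13 and -0.12 on the log2 scale among wild-type arrays, with 0.06, -0.11 and 0.16 among those of KO. Each genotype thus had arrays on either side of 0.

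Markers of Schwann cells and of neighbouring tissue also differed between arrays. A score of 6 general Schwann cell genes was the same kind of mean deviation. It was -0.21, 0.38 and -0.24 among wild-type arrays, with 0.09, -0.15 and 0.12 among those of KO. This score was positive on the arrays on which that of the myelin genes was. The 6 genes lay between percentile 76.4 (Foxd3) and 98.7 (Cdh19) of intensity, with S100b in 97.7, Erbb3 in 96.9 and Sox10 in 96.7. The adipocyte score (16 of 18 markers measured) ran from -0.74 to 1.35 among wild-type arrays and from -0.91 to 1.24 among those of KO. It was highest on wild-type replicate 3 and KO replicate 2, the arrays on which Gjb1 was low. The skeletal muscle score (20 of 20) ran from -0.92 to 0.71 among wild-type arrays and from -0.37 to 0.61 among those of KO. It was highest on wild-type replicate 1 and lowest on wild-type replicate 2. By mean intensity over the arrays the 20 muscle genes lay between percentile 87.9 (Mb) and 99.9 (among them the actin gene Acta1). On single arrays some were dimmer, as Mb at a log2 intensity of 8.70 and Myh2 at 8.72 on wild-type replicate 2. In whole nerve, fewer Schwann cells and less RNA per Schwann cell cannot be told apart, and the part of other tissue in the myelin values was not tested. With the adipocyte or the muscle score as a covariate, 0 of the 7 genes passed an adjusted p of 0.05 in limma, as without both arrays of high adipocyte score, a choice made after seeing the data.

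**Figure D4:**
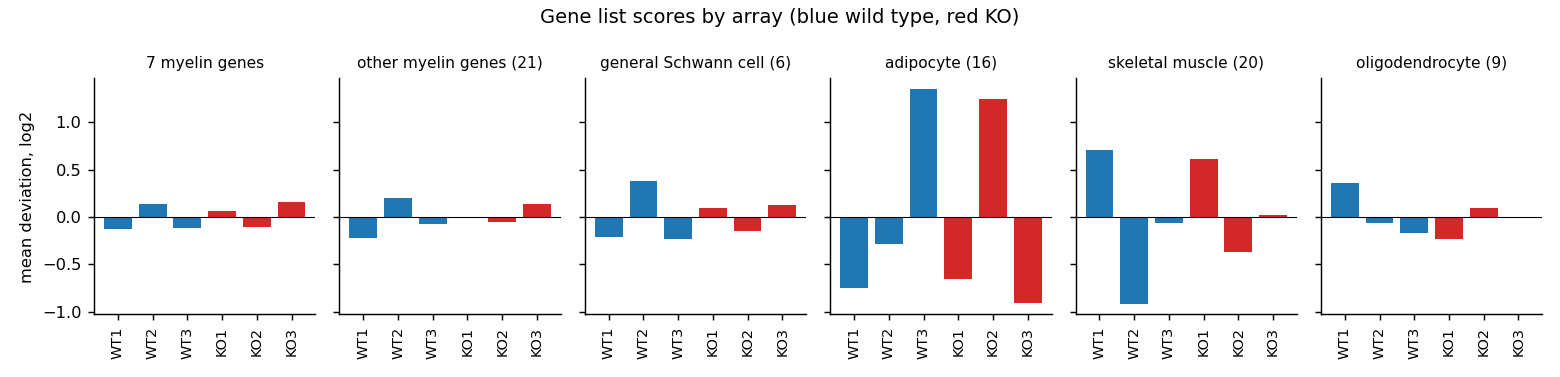
Mean deviation of log2 intensity from the 6-array mean (vertical axis) on each array (horizontal axis) for the 7 myelin genes, other myelin genes and marker lists, with the number of genes in brackets. The myelin score stays between -0.12 and 0.16, while the adipocyte score spans -0.91 to 1.35 and the muscle score -0.92 to 0.71.

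Mbp, Mag, Cnp, Mal and Gjb1 are also made by oligodendrocytes, the myelinating cells of the brain and spinal cord. The 9 oligodendrocyte genes examined lay between percentile 16.8 (Ermn) and 67 (Sox8) of intensity, with Opalin in 20.9, Mog in 44.3 and Mobp in 60.2. Their score over 9 genes was 0.36, -0.06 and -0.17 among wild-type arrays, with -0.23, 0.09 and 0.0001 among those of KO. Mobp had a log2 intensity of 8.81 on wild-type replicate 1 and 8.61 on KO replicate 2, against 7.50 to 8.12 on the others. The members did not move alike on KO replicate 2. Ermn (6.06) was above KO replicates 1 and 3 there, while Mog (6.87) and Opalin (5.61) were below them. Wild-type replicate 1 was the highest array for 6 of the 9 genes and KO replicate 2 for 0. Wild-type replicate 1, where this score and the skeletal muscle score were highest, was the lowest array for 4 of the 7 myelin genes. Whether transcripts from outside the nerve entered the values was not tested.

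Of 23 other genes of myelin and myelinating Schwann cells, 21 were measured and 0 passed an adjusted p of 0.05 in limma (smallest 0.867), with 0 at an unadjusted p under 0.05, against 5.83% of all genes. The mean was higher in KO for 13 and lower for 8, with a median log2 fold change of 0.033. Fa2h, which makes the 2-hydroxylated fatty acids of myelin galactolipids, had the smallest p and a log2 fold change of 0.35 ± 0.16 (SE; adjusted p = 0.867). The tight junction gene Cldn19 stood at 0.30 ± 0.18, the small heat shock gene Cryab at 0.19 ± 0.12 and the phosphatase gene Dusp15 at 0.29 ± 0.25. Dusp15, like Mag, was highest on wild-type replicate 2 (12.75), and it was lowest on wild-type replicate 3 (11.85). Over the 21 genes, wild-type replicate 1 was lowest for 11 and wild-type replicate 2 highest for 12, against 18.6% and 23.8% of all genes. The list score was -0.22, 0.20 and -0.07 among wild-type arrays, with 0.0015, -0.05 and 0.13 among those of KO.

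Of 17 transcription factors of myelination, 16 were measured, and Srebf1, the gene the KO targets, was the 1 past an adjusted p of 0.05. Egr2, the zinc finger factor required for myelination, had a log2 intensity of 9.63, 9.93 and 9.64 among wild-type arrays, with 10.32, 10.14 and 10.22 among those of KO. All KO values lay above all wild-type values, as in 4.08% of all genes. The log2 fold change was 0.50 ± 0.13 (SE), but Egr2 did not pass the test (limma adjusted p = 0.850). Nab2, which encodes a corepressor of EGR proteins, had 10.02, 10.39 and 10.03 among wild-type arrays, with 9.73, 9.73 and 9.86 among those of KO (log2 fold change -0.38 ± 0.14, adjusted p = 0.850). Id4, an inhibitor of basic helix-loop-helix factors, stood at -0.39 ± 0.18 (limma adjusted p = 0.865). For Nab2 and Id4 all KO values lay below all wild-type values, as in 8.21% of all genes. Sox10, the factor that specifies the Schwann cell lineage, stood at -0.015 ± 0.25 with wild-type values from 10.58 to 11.57. Beyond Srebf1, unadjusted p-values under 0.05 were found for Egr2, higher in KO as were 2.34% of all genes at that threshold, and for Nab2, lower in KO as were 3.49%.

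Partners and relatives of the myelin proteins, of which Drp2, Gjc3, Cadm4 and Pllp are also among the other myelin genes above, gave 22 of 22 measured genes, with 0 past an adjusted p of 0.05 in limma (smallest 0.901) and 0 at an unadjusted p under 0.05, against 5.83% of all genes. The mean was higher in KO for 8 and lower for 14, with a median of -0.055. The epidermal-type fatty acid-binding protein gene Fabp5 stood at -0.15 ± 0.13 (SE), the membrane linker gene Ezr at -0.15 ± 0.13, the brain-type fatty acid-binding protein gene Fabp7 at 0.36 ± 0.31 and the Pmp22 relative Emp1 at -0.36 ± 0.32. Drp2, whose product joins the protein of Prx to the dystroglycan complex, stood at -0.0082 ± 0.12, with log2 intensities from 13.31 to 13.55. Dag1, the dystroglycan gene, stood at 0.10 ± 0.16. Gjc3, the other connexin gene of myelinating Schwann cells in the list, stood at 0.15 ± 0.17.

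The genes most like the mean profile of the 7 were sought by Pearson correlation over the 6 arrays among 11083 other genes in the brighter 50%. They were Frmd3 (r = 0.994), Tgds (0.990), Lrrc61 (0.989), Ctc1 (0.988), Mblac2 (0.987) and 1300002E11Rik (0.985). Having been chosen for this likeness they have no p, and 144 of the 11083 genes had r above 0.9.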

How the data were processed

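Per the design text of the series, the authors used the Robust Multichip Average (TAC and Partek software) to obtain 1 intensity for each probe set and array. No header states whether the table is logged; its range of 3.67 to 23738 is that of unlogged intensity. Log2 was taken with no pseudocount. Median intensity was 115.5 to 122.6 over 41077 probe sets on the 6 arrays, and the number of arrays limits the precision. In the platform annotation 23521 probe sets had 1 symbol, 1814 had several and 15742 none, and the first kind was used. For the 1082 genes with more than 1 probe set, the brightest by mean was taken. No dim gene was filtered. No measured myelin gene had a second probe set, so a comparison of probe sets was not possible.

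KO minus wild type was fitted with limma 3.58.1 in R 4.3.3 over 22180 genes, with Benjamini-Hochberg adjustment. The fit was tested on simulated data. Intervals are 95% and moderated. Tables, promoter searches and plots used Python 3.11.15, pandas 2.3.3, numpy 2.4.6 and matplotlib 3.10.9.

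The myelin genes, lists and tests were chosen with earlier results of these data known. All measured myelin genes were named, with Srebf1, up to 4 members of each list by smallest p, and the 6 genes most alike in profile. Drp2, Dag1, Gjc3, Sox10 and the marker genes given were added for their roles. Alternatives were other scalings, priors, array weights, covariates, a replicate block, dim genes left out, other uses of probe sets, the methods' ANOVA and leaving out each array.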

Additional observations from a re-analysis of the deposited data

How the results depend on the processing

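Under the 18 alternatives, 0 of the 7 myelin genes passed an adjusted p of 0.05 and 0 met the study's criterion, with limma or with the methods' test, and the smallest adjusted p was 0.744. By construction 6 of the alternatives leave the 7 fold changes as they were. Of 84 under the other 12, 73 kept their direction and 11 turned, and the cause was not tested. With quantile normalization repeated, Pmp22 stood at -0.065 and Gjb1 at 0.025 on the log2 scale. With arrays at 1 median Mbp stood at 0.0041, and with array weights Gjb1 stood at 0.11. Leaving out each array in turn moved Mbp from -0.071 to 0.011, Mag from -0.017 to 0.27, Pmp2 from -0.0082 to 0.28 and Gjb1 from -0.21 to 0.16. The median of the 7 stayed between 0.003 and 0.16 over all alternatives. With the replicate block it was 0.083, as without it, and no call among the 7 changed. Deviations of same-numbered arrays over all genes correlated at 0.12, 0.012 and -0.23. Wild-type replicate 1 correlated best with KO replicate 3 (0.23). The highest value was 0.28, for wild-type replicate 3 with KO replicate 2, both of high adipocyte score. Such correlations cannot show whether the samples were paired by number. Over all genes, 265 met the study's criterion, against 138 with the methods' ANOVA, 89 with dimmer genes left out, 435 without wild-type replicate 1, 488 without wild-type replicate 3, 552 without KO replicate 2 and 819 without both arrays of high adipocyte score (chosen after seeing the data).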

Other observations

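Genes of non-myelinating Schwann cells, which bundle small axons without making myelin, were examined beside the myelin genes. All 7 of the list were measured and 0 passed an adjusted p of 0.05 in limma, with 0 at an unadjusted p under 0.05, against 5.83% of all genes. Ngfr, the neurotrophin receptor gene, had a log2 intensity of 8.69, 8.97 and 8.66 among wild-type arrays, with 8.46, 8.42 and 8.65 among those of KO. All KO values lay below all wild-type values, as in 8.21% of all genes (log2 fold change -0.26 ± 0.14, SE, limma adjusted p = 0.870). The sodium channel-like gene Scn7a stood at 0.25 ± 0.17 and was lowest on wild-type replicate 1 at 12.10, as Pmp22, Mag, Cnp and Mal were.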
